A study of Mus musculus with 9 samples.

Results

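The expression of 10 genes that regulate or mark endoderm was examined in embryoid bodies of the mouse PSC line BVSC. The genes were Gata4, Gata6, Sox17, Sox7, Foxa1, Foxa2, Hnf4a, Dab2, Afp and Cubn. They were taken by gene symbol from the 56691 genes of the count tables, each symbol belonged to a single row, and all 10 were counted in all 9 libraries and passed the filter on low counts. In BVSC cells, mVenus reports Blimp1 (BV) and CFP reports Stella, and the cells were sorted on BV after differentiation for RNA-seq. BV+ cells are the PGCLCs and BV- cells the surrounding somatic cells of the same embryoid bodies, although the labels give pluripotent stem cells as the cell type of all 9 samples.

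There were 4 groups. BV+ NRF1 OE (n = 2) and BV- NRF1 OE (n = 3) were cells with a DOX-inducible Nrf1 cDNA on the p20 vector, and BV+ Ctrl (n = 2) and BV- Ctrl (n = 2) were cells with the empty p20 vector. All groups carried both reporters and received DOX at 1.5 µg/mL from day 2 to day 5 of differentiation, so the controls differ from the NRF1 OE cells in the insert and not in DOX. The vectors were introduced into a single PSC line by lentivirus with drug selection, and the methods date the sort of BV+ cells to day 5. The methods speak of biological duplicates or replicates, but nothing says which libraries came from separate cultures, so the p-values measure the spread between these libraries, which may be technical in part.

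Total counts lay between 13702162 and 19625460 per library, and 16903 genes were tested. Nrf1 itself was at 95.7 and 99.4 CPM (counts scaled to library size with TMM factors) in BV+ NRF1 OE against 91.1 and 90.4 CPM in BV+ Ctrl. In BV- cells it was at 119, 122 and 126 CPM with NRF1 OE against 99.1 and 105 CPM with Ctrl. The libraries labelled NRF1 OE were thus above their controls without overlap, but the log2 fold changes of 0.10 (SE 0.104, adjusted p = 0.489) and 0.26 (SE 0.0951, adjusted p = 0.0718) did not pass edgeR's quasi-likelihood test. Prdm1, which encodes the BLIMP1 of the BV reporter, had group means between 54.8 and 60.1 CPM and was not higher in the libraries labelled BV+ (log2 fold change 0.05, adjusted p = 1 at Ctrl, and 0.00074, adjusted p = 0.998 at NRF1 OE, from the same edgeR fit). Group names are used below as the labels give them. Counts also followed the GC content of the transcripts differently, with Spearman's rho over 14253 genes between -0.561 and -0.467 in the 4 Ctrl libraries and between 0.00674 and 0.666 in the 5 NRF1 OE libraries.

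The endoderm of the mouse embryo arises at different times. The primitive endoderm of the blastocyst forms the visceral and parietal endoderm of the yolk sac, and the definitive endoderm forms at gastrulation and gives rise to the gut and its organs. GATA6 and GATA4 are zinc finger factors that direct primitive endoderm, SOX17 and SOX7 are SOXF factors that act after them, and FOXA1, FOXA2 and HNF4A are factors that open and activate genes of endoderm and liver. DAB2 is an adaptor protein of clathrin coats, CUBN (cubilin) is a large receptor that takes up proteins and vitamins in the visceral endoderm, and AFP is the main plasma protein secreted by the yolk sac. Several of these genes are not restricted to endoderm. Gata4 and Gata6 are also used in heart precursors, Sox7 and Sox17 in endothelium, and Foxa1 and Foxa2 in floor plate or notochord.

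Promoter sequences were looked up in RefSeq on build GRCm38.p6 (the counts were made on GRCm39), from 250 bases before to 50 bases after each transcript start. The table held 10 promoters of 6 of the genes, namely Afp, Cubn, Dab2, Foxa1, Foxa2 and Hnf4a. Shown here are the promoters of Cubn and Foxa1, the genes whose counts fell with NRF1 OE in BV+ cells, and of Afp and the upstream start of Hnf4a, whose levels followed that of Cubn or each other most closely over the libraries. The Cubn promoter lies at chr2:13491827-13492126 on the minus strand, the Foxa1 promoter at chr12:57546062-57546361 on the minus strand, the Afp promoter at chr5:90490464-90490763 on the plus strand and the Hnf4a promoter at chr2:163506607-163506906 on the plus strand. Capitals mark the 6 short motifs described below.
Cubn: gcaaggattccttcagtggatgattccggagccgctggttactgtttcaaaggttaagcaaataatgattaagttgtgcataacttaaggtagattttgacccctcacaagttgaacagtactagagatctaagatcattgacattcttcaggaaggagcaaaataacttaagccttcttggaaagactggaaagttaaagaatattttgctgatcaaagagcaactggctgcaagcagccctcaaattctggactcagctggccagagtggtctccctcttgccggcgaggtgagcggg
Foxa1: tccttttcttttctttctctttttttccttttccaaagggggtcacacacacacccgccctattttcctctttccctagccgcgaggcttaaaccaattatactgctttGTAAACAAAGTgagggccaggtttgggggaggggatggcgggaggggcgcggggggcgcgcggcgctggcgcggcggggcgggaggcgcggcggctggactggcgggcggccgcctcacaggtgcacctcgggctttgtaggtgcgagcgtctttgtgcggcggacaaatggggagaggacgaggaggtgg
Afp: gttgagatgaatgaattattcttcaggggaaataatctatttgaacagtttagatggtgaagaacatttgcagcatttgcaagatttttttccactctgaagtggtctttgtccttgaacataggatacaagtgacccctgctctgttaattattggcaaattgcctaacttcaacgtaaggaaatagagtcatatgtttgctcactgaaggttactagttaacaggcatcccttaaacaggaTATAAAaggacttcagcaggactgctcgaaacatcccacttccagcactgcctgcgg
Hnf4a: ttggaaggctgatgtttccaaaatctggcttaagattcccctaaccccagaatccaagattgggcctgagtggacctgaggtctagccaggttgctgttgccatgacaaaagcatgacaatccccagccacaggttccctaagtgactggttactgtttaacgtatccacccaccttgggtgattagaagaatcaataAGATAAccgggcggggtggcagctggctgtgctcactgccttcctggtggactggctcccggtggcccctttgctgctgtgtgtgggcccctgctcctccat

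The motifs were searched on both strands as exact letters. None of the 10 promoters held GCATGCG, a core of the NRF1 motif, which 3.58% of all 32851 promoters of this length held. A GATA motif (AGATAA, in 11.2% of all promoters) was found in a promoter of Dab2, of Foxa2 and of Hnf4a, where it began 52 bases before the start. A short HNF4 motif (CAAAGT, in 14.4%) was found in a promoter of Dab2, Foxa1 and Foxa2, and in Foxa1 it overlapped a FOX motif (TGTTTAC, in 3.65%). A SOX motif (ACAATGG, in 3.66%) was found in none and a TATA box (TATAAA, in 13.6%) in Afp and Foxa2. The promoters of Cubn and Afp held 5 and 3 CpG and had GC contents of 44.3% and 40.0%, that of Foxa1 held 26 CpG at a GC content of 62.3%, and the median promoter held 7 CpG at 52.7%. These letters describe the windows only, and binding was not measured in these samples.

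Per length, 8 of the 10 genes were expressed below the median gene tested. On the FPKM scale, the mean over the 9 libraries was 5.22 for Dab2 and 5.05 for Cubn, above the median of 3.86, followed by 1.89 for Gata4. Hnf4a was at 0.992, Afp at 0.818, Sox7 at 0.644 and Gata6 at 0.608 FPKM. Sox17, Foxa1 and Foxa2 were lowest, at 0.271, 0.246 and 0.223 FPKM, with 3 to 29 raw counts per library. Cubn and Dab2 were counted from 395 to 2808 reads per library. Strand use in the counting is not given in the sources used here, so reads of genes that overlap on the opposite strand (in GENCODE M21, Hnf4aos at Hnf4a, Gm13270 at Cubn, Gm43449 at Afp, Gm16311 and Gm18888 at Dab2, 1010001N08Rik at Gata6 and Gm37587 at Sox17) cannot be told apart from theirs. In these bulk samples, fewer cells of a type and less RNA per cell cannot be told apart.

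**Figure D1:**
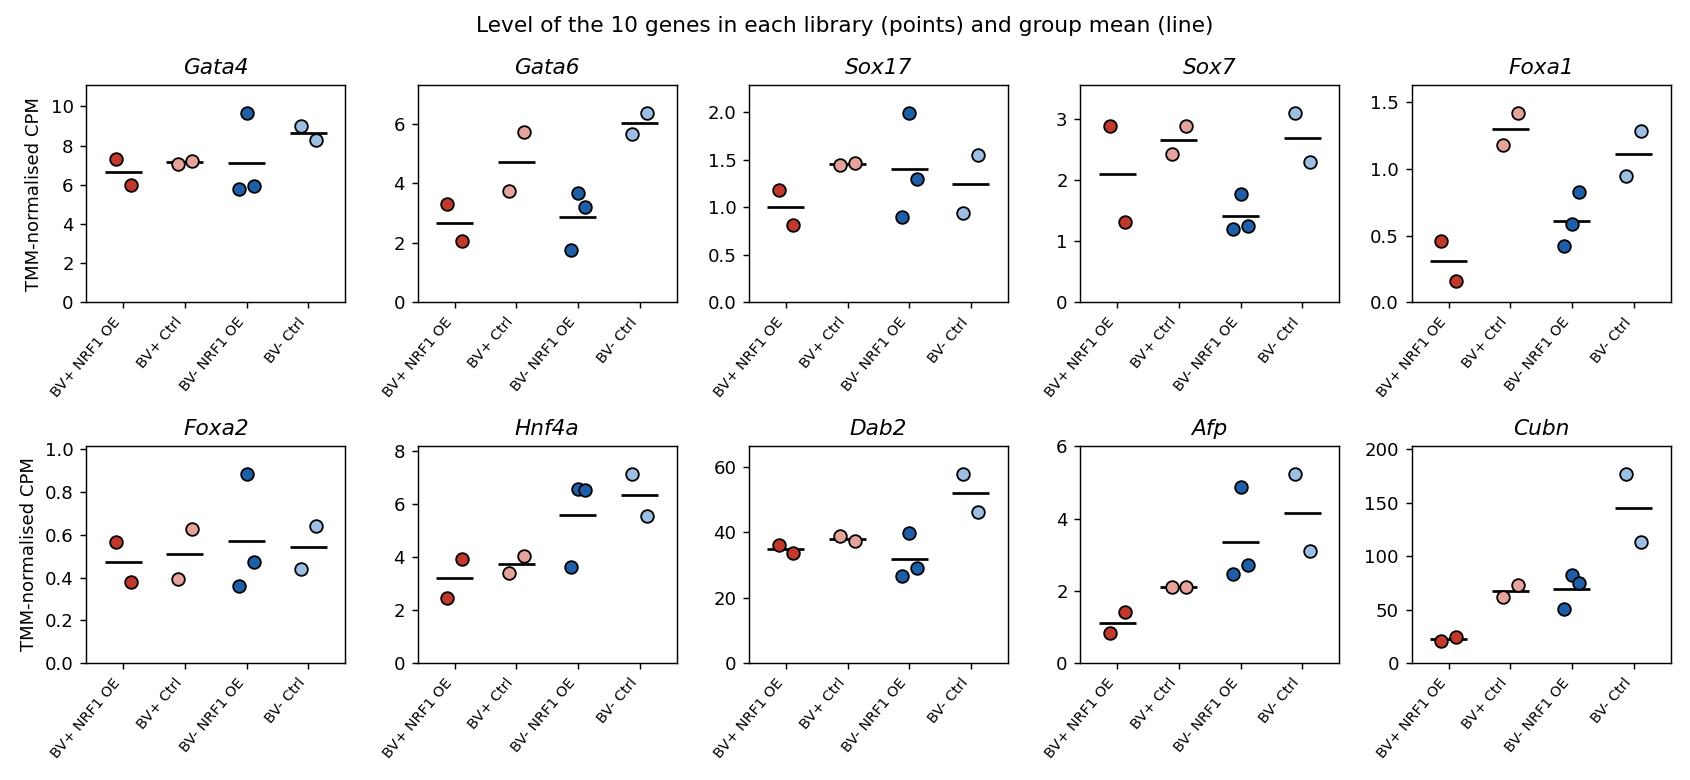
Level of each of the 10 endoderm genes (y axis, CPM after TMM scaling, from 0) in the 4 groups (x axis), with a point for each library and a line at the group mean. Cubn was at 20.4 and 24.8 CPM in BV+ NRF1 OE and at 113 and 177 CPM in BV- Ctrl, whereas the groups overlapped for Foxa2.

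The first question was how NRF1 OE relates to these genes in BV+ cells. Cubn and Foxa1 fell, and none of the 10 rose. At an adjusted p under 0.05, 2 of the 10 genes were lower with NRF1 OE, where 1.78% of all genes tested were. At the threshold used in the study (p under 0.05 before adjustment, log2 fold change beyond 0.58 in size), Gata6, Foxa1 and Cubn were lower, 3 of the 10 against 7.2% of all genes. The estimates of all 10 were below 0, although that of Dab2 turned to 0.052 with the offsets described below, with a median log2 fold change of -0.44 against 0.04 over all genes tested. The libraries of both groups did not overlap for 6 of the 10, all lower with NRF1 OE, where 32% of all genes were.

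Cubn was at 20.4 and 24.8 CPM in BV+ NRF1 OE and at 62.0 and 73.3 CPM in BV+ Ctrl. The groups lay far apart, with 395 and 455 reads against 946 and 1398. The log2 fold change was -1.59 (SE 0.253, adjusted p = 0.0127), or 3.00-fold lower. The call was lost without BV+ NRF1 OE replicate 1, BV+ Ctrl replicate 1 or BV+ Ctrl replicate 2, each of which leaves 1 library in a group. The log2 fold change stayed between -1.73 and -1.33 over the 16 alternatives. With library-wise offsets for transcript GC content and length it was -1.33 (adjusted p = 0.0161).

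Foxa1 was at 0.464 and 0.163 CPM in BV+ NRF1 OE, from 9 and 3 reads, and at 1.18 and 1.42 CPM in BV+ Ctrl, from 18 and 27 reads. Both NRF1 OE libraries were below both controls. The log2 fold change was -2.02 (SE 0.526, adjusted p = 0.0411), with a 95% confidence interval from -3.19 to -0.89. The call was lost without any 1 of the 4 BV+ libraries, which leaves 1 library in a group, as it was without BV- Ctrl 1 or BV- Ctrl 2. It was also lost without BV- NRF1 OE 3 (adjusted p = 0.0507), where 3.94% of all genes were called in either direction. The log2 fold change lay between -2.94 and -1.47 over these fits, and DESeq2 gave Foxa1 no adjusted p.

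The GATA factors did not pass the test in BV+ cells. Gata6 was at 3.30 and 2.07 CPM with NRF1 OE and at 3.74 and 5.72 CPM with Ctrl, a log2 fold change of -0.82 (SE 0.350, adjusted p = 0.132). It passed with offsets for GC content and length (log2 fold change -1.10, adjusted p = 0.0341). Gata4 was at 7.32 and 5.99 CPM against 7.08 and 7.24 CPM, with overlapping groups and an interval of the log2 fold change from -0.65 to 0.44.

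Of the other genes, Afp was at 0.824 and 1.41 CPM with NRF1 OE and at 2.10 CPM in both controls, a log2 fold change of -0.91 (SE 0.444, adjusted p = 0.175). Dab2 was at 36.0 and 33.5 CPM against 38.7 and 37.2 CPM, a log2 fold change of -0.13 with an interval from -0.53 to 0.28. Dab2 and Cubn, the pair of genes with the most reads, thus had different values in BV+ cells, which is a description and was not tested. Sox7, Sox17, Foxa2 and Hnf4a had log2 fold changes between -0.53 and -0.13 and adjusted p between 0.392 and 0.891. Their intervals were wide, for example from -1.48 to 0.41 for Sox17 and from -0.96 to 0.50 for Hnf4a.

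**Figure D2:**
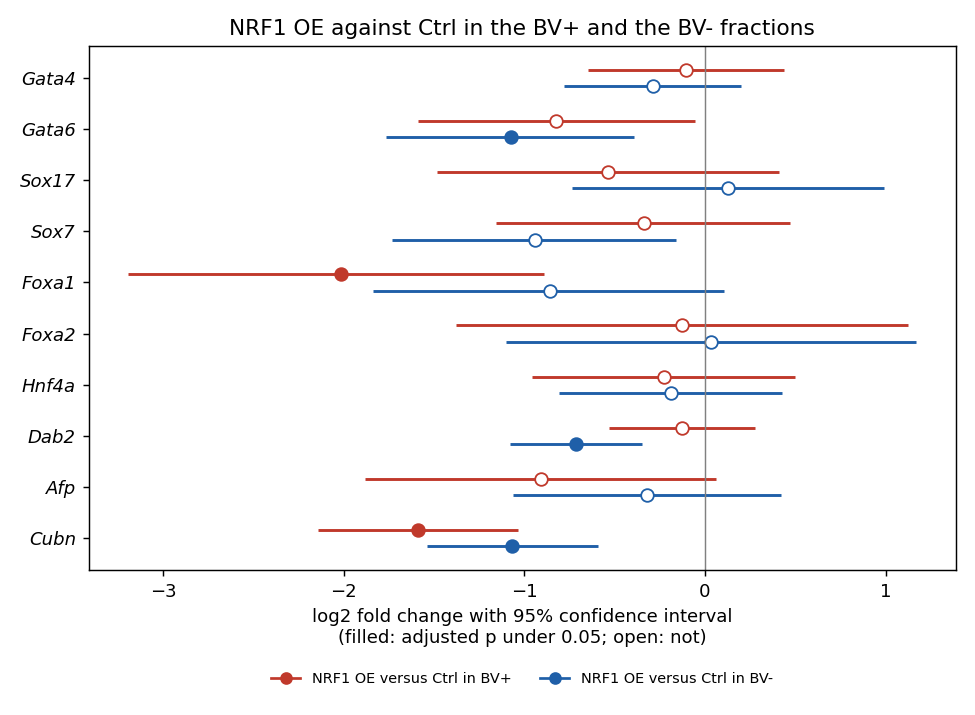
Log2 fold change of NRF1 OE against Ctrl (x axis) of the 10 endoderm genes (y axis) in BV+ (red) and BV- cells (blue), with 95% confidence intervals from edgeR; filled points had an adjusted p under 0.05. Cubn lay below 0 in both, at -1.59 and -1.07, and the intervals of Foxa2 spanned 0 in both.

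In BV- cells, Gata6, Dab2 and Cubn were lower with NRF1 OE. These were 3 of the 10 genes, where 6.98% of all genes tested were lower at an adjusted p under 0.05. With Sox7, 4 of the 10 passed the study's threshold, where 10.3% of all genes did. The groups did not overlap for 5 of the 10, all lower with NRF1 OE, where 27.6% of all genes were. The median log2 fold change of the 10 was -0.52, against 0.01 over all genes.

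Cubn was at 50.4, 82.6 and 74.9 CPM in BV- NRF1 OE and at 177 and 113 CPM in BV- Ctrl. The libraries varied within both groups, and the groups did not overlap. The log2 fold change was -1.07 (SE 0.217, adjusted p = 0.0317). Dab2 was at 26.5, 39.6 and 29.0 CPM against 57.7 and 46.1 CPM, and its log2 fold change was -0.71 (SE 0.167, adjusted p = 0.0317). The transcripts of Cubn and Dab2 have GC contents of 46.4% and 45.7%, below the median of 49.8% over the genes tested. With offsets for GC content and length, their log2 fold changes were -0.58 (adjusted p = 0.159) and -0.40 (adjusted p = 0.208), and the calls were lost.

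Gata6 was at 1.75, 3.68 and 3.20 CPM in BV- NRF1 OE and at 5.67 and 6.36 CPM in BV- Ctrl. Every NRF1 OE library was below both controls, with 29 to 54 reads against 90 and 119. The log2 fold change was -1.08 (SE 0.313, adjusted p = 0.0419), and with the offsets it was -1.36 (adjusted p = 0.0278). Its transcript has a GC content of 55.3%. The calls of Cubn, Dab2 and Gata6 were each lost without BV- NRF1 OE replicate 3, where 0.207% of all genes were called in either direction. They were also lost without any 1 of the 4 Ctrl libraries, which leaves 1 library in a group. The call of Gata6 was lost without BV- NRF1 OE replicate 1 too (adjusted p = 0.0521). Without single libraries, log2 fold changes lay between -1.37 and -0.71 for Cubn, -0.93 and -0.54 for Dab2 and -1.31 and -0.81 for Gata6. In a fit of the 5 BV- libraries alone, 0 genes of all those tested had an adjusted p under 0.05, and Cubn, Dab2 and Gata6 had adjusted p of 0.0806, 0.0807 and 0.0807.

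Sox7 was at 1.20, 1.77 and 1.24 CPM in BV- NRF1 OE against 3.09 and 2.30 CPM in BV- Ctrl, without overlap, and its log2 fold change of -0.94 (SE 0.358) had an adjusted p of 0.0787. Foxa1 was at 0.421, 0.589 and 0.829 CPM against 0.945 and 1.28 CPM, also without overlap, with an adjusted p of 0.169. Gata4, Hnf4a, Afp, Sox17 and Foxa2 overlapped between the groups and had log2 fold changes between -0.32 and 0.13. Gata4 was called with the offsets (-0.65, adjusted p = 0.0469) and without BV- NRF1 OE replicate 2 (-0.59, adjusted p = 0.0473), and Sox7 without that library (-1.15, adjusted p = 0.0469) and with no filter on low counts. The BV- NRF1 OE library 2, which had the lowest total count of the 9 and the highest rho with GC content (0.666), was the highest of its 3 for 9 of the 10 genes, all but Foxa1, for example for Gata4, at 9.65 CPM against 5.78 and 5.92 CPM, and for Afp, at 4.86 CPM against 2.47 and 2.72 CPM.

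Whether the NRF1 OE effect differed between BV+ and BV- cells was tested as an interaction. In edgeR 0 of the 10 genes passed, as did 0% of all genes tested, and DESeq2 called 0 of the 10 as well. At an unadjusted p under 0.05 there was 1 of the 10 genes, against 5.51% of all genes. This was Dab2, whose difference of 0.59 (SE 0.249, adjusted p = 0.849) had an interval from 0.04 to 1.13. The difference for Cubn was -0.52, with an interval from -1.25 to 0.21, and for Foxa1 -1.16, with an interval from -2.72 to 0.36. These intervals are wide, and a missed threshold does not show that the effects were alike.

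The next question was how BV+ and BV- cells differ at each state of NRF1. At Ctrl, no gene of the 10 had an adjusted p under 0.05 in edgeR, where 0.0237% of all genes were lower in BV+ cells, and DESeq2 called Cubn. At an unadjusted p under 0.05, 4 genes were lower in BV+ cells, where 1.79% of all genes were. These were Cubn (log2 fold change -1.10, SE 0.243, adjusted p = 0.0619), Afp (-0.98, SE 0.389, adjusted p = 0.514), Hnf4a (-0.76, SE 0.318, adjusted p = 0.564) and Dab2 (-0.45, SE 0.184, adjusted p = 0.536). At the study's threshold there were 3 of the 10, against 0.893% of all genes. The groups did not overlap for 5 of the 10, all lower in BV+ cells, where 25.4% of all genes were.

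Hnf4a was at 3.41 and 4.04 CPM in BV+ Ctrl and at 7.12 and 5.55 CPM in BV- Ctrl. Afp was at 2.10 CPM in both BV+ Ctrl libraries and at 5.23 and 3.10 CPM in BV- Ctrl. In both genes BV- Ctrl replicate 1 was the highest of the 4 Ctrl libraries, as it was for Cubn and Dab2. Without that library, the log2 fold change of Cubn was -0.74 (adjusted p = 0.669). With the offsets for GC content and length it was -1.28 (adjusted p = 0.0343). In a fit of the 4 Ctrl libraries alone, Hnf4a, Dab2 and Cubn had an adjusted p under 0.05, and 5.52% of all genes were called in either direction. The GATA, SOXF and FOXA genes had log2 fold changes between -0.34 (Gata6) and 0.22 (Foxa1), and of these only Gata4, at 7.08 and 7.24 CPM against 9.01 and 8.28 CPM, did not overlap.

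At NRF1 OE, Cubn and Afp were lower in BV+ than in BV- cells. These were 2 of the 10 genes, where 3.85% of all genes tested were lower at an adjusted p under 0.05, and 3 of the 10 passed the study's threshold, where 3.28% of all genes did. The groups did not overlap for the same 2 of the 10, where 19.5% of all genes were lower without overlap. For Cubn, at 20.4 and 24.8 CPM against 50.4 to 82.6 CPM, the log2 fold change was -1.62 (SE 0.238, adjusted p = 0.000903), and its adjusted p was under 0.05 in all 16 alternatives. For Afp, at 0.824 and 1.41 CPM against 2.47 to 4.86 CPM, it was -1.56 (SE 0.399, adjusted p = 0.0234), or 2.96-fold lower. The call of Afp was lost without BV+ NRF1 OE replicate 1 (adjusted p = 0.195) and in a fit of the 5 NRF1 OE libraries alone (0.0532).

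Hnf4a had a log2 fold change of -0.80 (SE 0.300, adjusted p = 0.106) at NRF1 OE, and it was called with the offsets (-0.88, adjusted p = 0.031). Its BV+ libraries, at 2.47 and 3.92 CPM, overlapped with BV- libraries at 3.61, 6.56 and 6.52 CPM. Gata4, Gata6, Sox17, Foxa2 and Dab2 had log2 fold changes between -0.45 and 0.13, all with overlapping groups. Foxa1 had -0.94 (SE 0.547, adjusted p = 0.283), also with overlap, from at most 14 reads per library. Sox7 was at 2.89 and 1.31 CPM in BV+ NRF1 OE against 1.20 to 1.77 CPM in BV- NRF1 OE, a log2 fold change of 0.59 (SE 0.364, adjusted p = 0.316). This comparison shares its BV+ and BV- NRF1 OE libraries with the comparisons with Ctrl, so the values are not independent of those above.

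**Figure D3:**
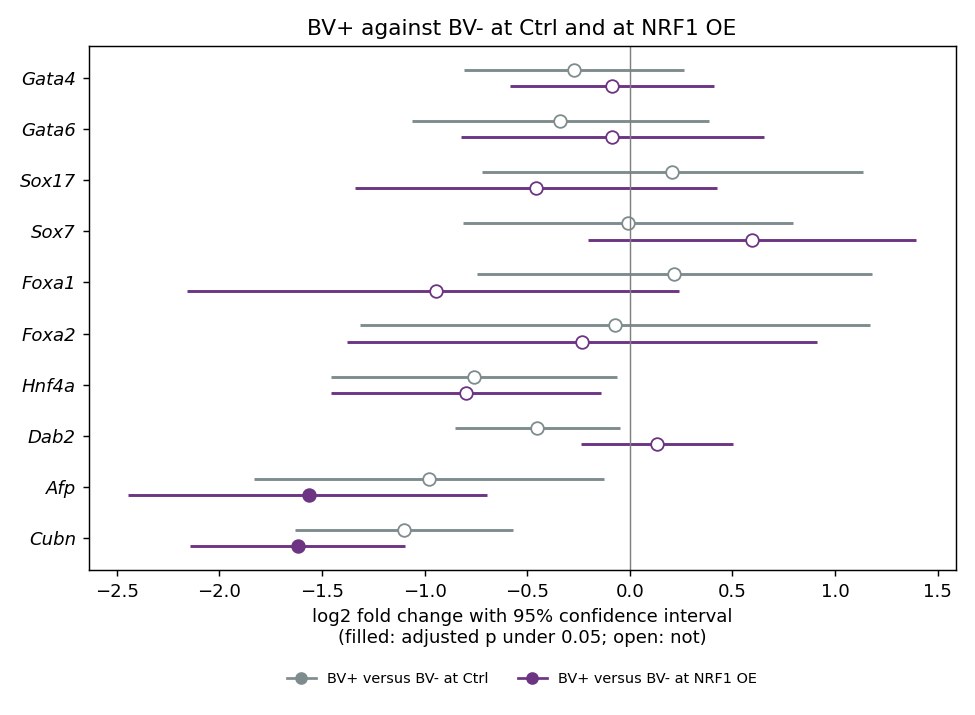
Log2 fold change of BV+ against BV- cells (x axis) of the 10 endoderm genes (y axis) at Ctrl (grey) and at NRF1 OE (purple), with 95% confidence intervals from edgeR; filled points had an adjusted p under 0.05. Cubn and Afp were below 0 at both, at -1.10 and -0.98 with Ctrl and at -1.62 and -1.56 with NRF1 OE.

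Over the 4 groups, Cubn had its highest mean in BV- Ctrl (145 ± 45.1 CPM, SD, n = 2), followed by BV- NRF1 OE (69.3 ± 16.8, SD, n = 3), BV+ Ctrl (67.7 ± 8.01, SD, n = 2) and BV+ NRF1 OE (22.6 ± 3.12, SD, n = 2). The neighbours BV- NRF1 OE and BV+ Ctrl overlapped in their libraries. Afp had the same order, at 4.16 ± 1.51, 3.35 ± 1.31, 2.10 ± 0.000636 and 1.12 ± 0.418 CPM, and its BV- groups overlapped. Hnf4a also had that order, at 6.34 ± 1.11, 5.56 ± 1.69, 3.72 ± 0.446 and 3.20 ± 1.02 CPM, and each of its groups overlapped with its neighbour in this order. Dab2 and Gata6 were highest in BV- Ctrl too (51.9 ± 8.23 and 6.01 ± 0.483 CPM), and their lowest means were in BV- NRF1 OE for Dab2 (31.7 ± 6.96 CPM) and in BV+ NRF1 OE for Gata6 (2.68 ± 0.869 CPM).

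**Figure D4:**
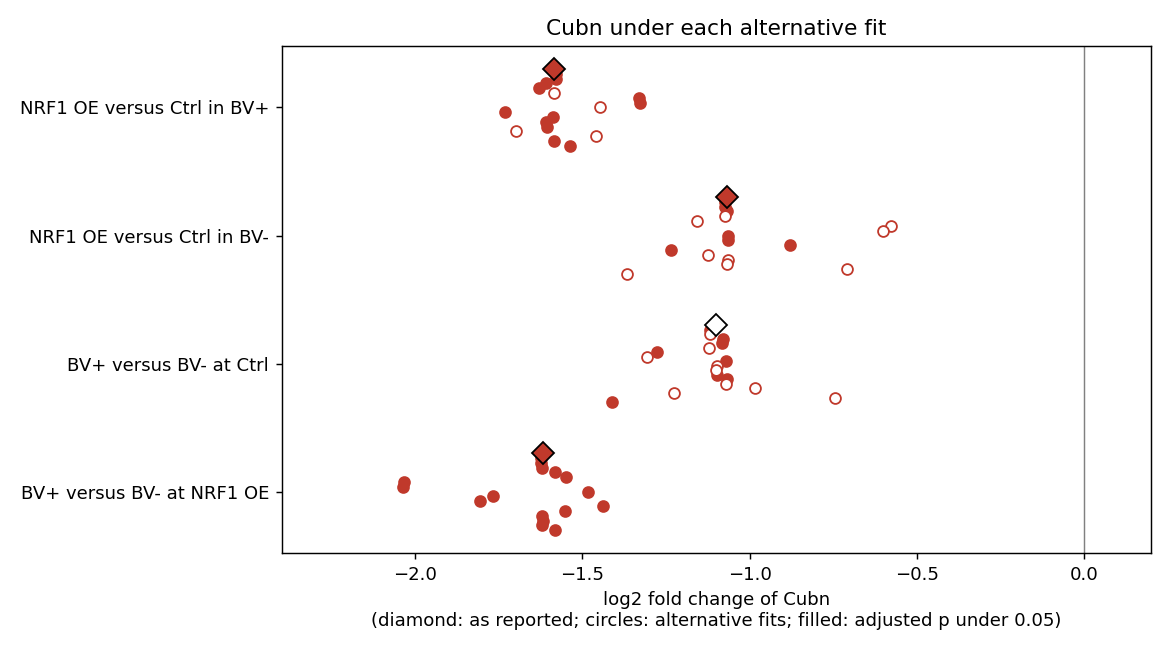
Log2 fold change of Cubn (x axis) in 4 comparisons (y axis) as reported (diamonds) and in each alternative fit (circles), filled where the adjusted p was under 0.05. The value at NRF1 OE between BV+ and BV- cells was called in every fit, whereas that in BV- cells moved to -0.58 with offsets for GC content and length.

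The 10 genes varied together to a different degree. Of their 45 pairs, 43 had a positive Pearson correlation of log2 CPM over the 9 libraries, with a median of 0.46, a description in which the libraries share groups, depth and base composition. The highest were 0.90 between Afp and Cubn, 0.89 between Hnf4a and Afp and 0.83 between Gata4 and Dab2, and the lowest was -0.12 between Sox7 and Hnf4a. Among the other genes with a mean of at least 1 CPM, 14367 in all for Gata4, those most like Cubn were Cemip (r = 0.97) and Gm18983 (0.97), those most like Afp were Slc37a2 (0.95) and Slc35d3 (0.94), and those most like Hnf4a were Sumf1 and Glyctk (both 0.96). Slco2a1 (0.95) and Nxf7 (0.88) were most like Gata4, and Gm15760 (0.94) and Smndc1 (0.92) most like Dab2. For the genes with few reads these were Gm18562 and Elavl3 for Gata6, Pld4 and Hjv for Sox17, Ttc41 and Abhd18 for Sox7, Magea5 and Xndc1 for Foxa1, and Pcsk4 and Gpt for Foxa2, with r between 0.85 and 0.94.

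Other genes of the endoderm were taken as 3 lists, chosen with earlier results of these data known. In the list of 16 visceral endoderm and plasma protein genes, 13 were tested. At NRF1 OE, 11 of the 13 had lower estimates in BV+ than in BV- cells, and the median log2 fold change was -1.33 against -0.0049 over all genes. The summed level of the 16 was 447 and 473 CPM in BV+ NRF1 OE and overlapped with the 413 to 517 CPM of BV- NRF1 OE. Lrp2 alone made up 419 and 443 CPM of it in BV+ NRF1 OE and 370 to 474 CPM in BV- NRF1 OE. Of the 13, 4 passed the test as lower, where 3.85% of all genes tested did. The 4 were Apoa1 (-2.70, SE 0.507, adjusted p = 0.00451), Ttr (-2.27, SE 0.508, adjusted p = 0.012), Amn (-1.92, SE 0.508, adjusted p = 0.0279) and Apob (-1.60, SE 0.377, adjusted p = 0.0158). Apoa1 and Apob encode apolipoproteins, Ttr encodes the plasma carrier transthyretin, and Amn encodes amnionless, the partner that anchors cubilin in the membrane.

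Amn was at 0.599 to 1.34 CPM in BV+ NRF1 OE and at 1.75 to 6.19 CPM in BV- NRF1 OE. Apoa1 was at 0.490 to 0.721 CPM against 2.55 to 6.78 CPM, from 9 and 14 reads in the BV+ libraries. At Ctrl, 12 of the 13 had lower estimates in BV+ cells, with a median of -0.75. Of these, 1 passed, Apob (-1.93, SE 0.360, adjusted p = 0.0259), where 0.0237% of all genes tested passed as lower. Apob was at 30.6 CPM in BV- Ctrl replicate 1 and at 11.8 CPM in replicate 2, and without replicate 1 its log2 fold change was -1.10 (adjusted p = 0.2) at Ctrl and -0.59 (adjusted p = 0.311) for NRF1 OE in BV- cells. With NRF1 OE against Ctrl, Apob (-1.43, adjusted p = 0.0317) and Lrp2 (-0.40, adjusted p = 0.0425), which encodes the endocytic receptor megalin, were lower in BV- cells. These were 2 of the 13, where 6.98% of all genes tested were lower. With offsets for GC content and length, Apob was at -0.79 (adjusted p = 0.119) and Lrp2 at -0.091 (adjusted p = 0.622), and both calls were lost. In BV+ cells 0 of the 13 passed in edgeR, and DESeq2 called Apob. Alb, the defining plasma protein of liver, had 0 reads in 8 of the 9 libraries.

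In the list of 12 parietal endoderm and basement membrane genes, 6 passed as higher in BV+ than in BV- cells at NRF1 OE, where 9.9% of all genes tested did, and 0 passed as lower. Serpinh1, a collagen chaperone (1.82, SE 0.212, adjusted p = 0.000183), Sparc, a matrix protein (1.32, SE 0.180, adjusted p = 0.000522), Nid1, a basement membrane linker (1.20, SE 0.128, adjusted p = 9.21e-05) and Plat, a plasminogen activator (1.11, SE 0.239, adjusted p = 0.00977) were among them, and these genes are also expressed in mesenchyme and endothelium. The estimates of 2 of the 12 were lower in BV+ cells at NRF1 OE, and 1 of them passed the study's threshold. Group means were 28.1 against 45.9 CPM for Lama1 and 2.91 against 4.09 CPM for Stra6. Serpinh1 and Sparc were also higher with NRF1 OE in BV+ cells (1.30 and 1.07, adjusted p = 0.0165 and 0.0179), where 6.24% of all genes were. Over 16 alternatives their log2 fold changes lay between 0.86 and 1.64 and between 0.75 and 1.34. Both calls were lost in a fit with a term for the replicate number (adjusted p = 0.0634 and 0.0639). Nid1 was lower with NRF1 OE in BV- cells (-0.43, adjusted p = 0.0455), but its call was lost with offsets for GC content and length (-0.35, adjusted p = 0.0574).

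In the list of 18 primitive and definitive endoderm regulators, 14 were tested. Pdgfra, a receptor of primitive endoderm that mesoderm also uses, was lower with NRF1 OE in BV+ cells (-1.17, SE 0.217, adjusted p = 0.0174) and in BV- cells (-1.29, SE 0.197, adjusted p = 0.0317). This was 1 of the 14 in each fraction, where 1.78% and 6.98% of all genes tested were lower, so in BV- cells the share was near that of all genes. The log2 fold change of Pdgfra lay between -1.345 and -1.01 in BV+ cells and between -1.40 and -1.05 in BV- cells over 16 alternatives. In the fit of the 5 BV- libraries alone its adjusted p was 0.0806. It was at 2.94 and 3.71 CPM in BV+ NRF1 OE against 6.82 and 8.13 CPM in BV+ Ctrl, and at 2.73 to 3.61 CPM against 7.85 and 7.88 CPM in BV- cells. Prox1, a factor of liver, lymphatic endothelium and neurons, was higher in BV+ than in BV- cells (1.82, adjusted p = 0.00869 at Ctrl and 2.25, adjusted p = 8.2e-05 at NRF1 OE). Prox1 was the only 1 of the 14 that passed as higher, where 1.1% of all genes tested did at Ctrl and 9.9% at NRF1 OE. Otx2 was lower in BV+ cells at NRF1 OE (-0.43, adjusted p = 0.0461), 1 of the 14 where 3.85% of all genes were lower. In a fit of the 5 NRF1 OE libraries alone the adjusted p of Otx2 was 0.181. Over the 3 lists together, the number of genes called moved with the fit, from 3 to between 0 and 11 for NRF1 OE in BV+ cells and from 4 to between 0 and 7 in BV- cells. Of all 16903 genes tested, 1355 were called in BV+ and 2910 in BV- cells, and these calls moved too. Without single BV- NRF1 OE libraries the share of all genes lay between 3.94% and 29.4% in BV+ cells. In BV- cells it then lay between 0.207% and 34.6%.

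**Figure D5:**
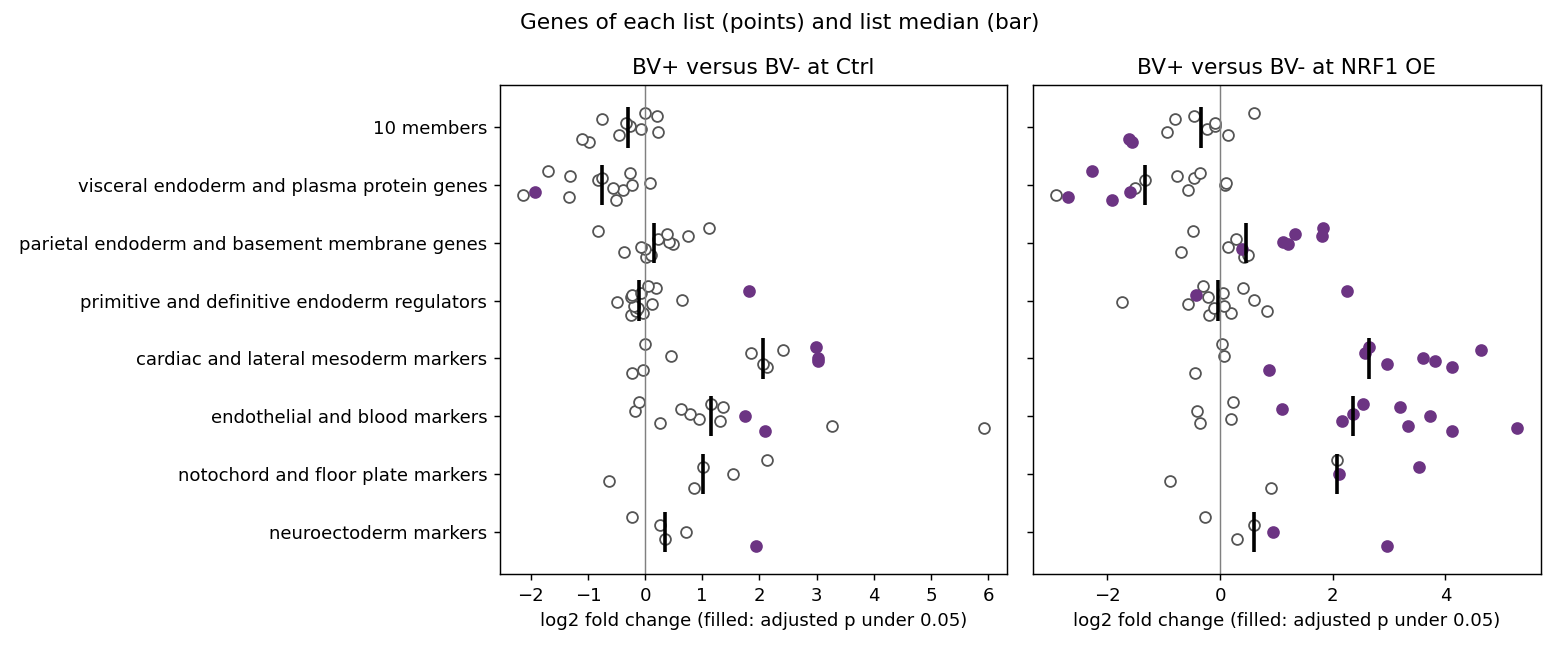
Log2 fold change of BV+ against BV- cells (x axis) at Ctrl (left) and at NRF1 OE (right), with a point for each tested gene of a list (y axis) and a bar at the list's median; filled points had an adjusted p under 0.05. At NRF1 OE the median was -1.33 for the visceral endoderm genes and 2.64 for the cardiac and lateral mesoderm markers.

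Markers of other cell types, some of which use these genes, were compared between the fractions. At NRF1 OE, 8 of the 11 tested cardiac and lateral mesoderm markers were higher in BV+ than in BV- cells, where 9.9% of all genes tested were, among them Hand1, with a log2 fold change of 4.11, Isl1 (3.82), Mef2c (3.61) and Nkx2-5 (2.58). Of the 13 tested endothelial and blood markers 9 were higher, among them Cdh5 (4.12), Kdr (3.73), Tal1 (2.54) and Lmo2 (2.36). Of the notochord and floor plate markers 2 of 5 were higher (Nog 3.53 and Krt19 2.10), and of the neuroectoderm markers 2 of 5 (Nes 2.96 and Sox1 0.93). In the notochord list, Noto had 0 reads in every library, Shh at most 3 and T at most 16. Foxj1 had a lower mean in BV+ than in BV- cells at NRF1 OE (3.2 against 5.9 CPM). At Ctrl, 3 cardiac, 2 endothelial, 1 neuroectoderm and 0 notochord markers were higher in BV+ cells, where 1.1% of all genes were. With NRF1 OE in BV+ cells, 3 cardiac, 5 endothelial, 1 notochord and 1 neuroectoderm markers rose, where 6.24% of all genes did. In BV- cells 1 of the 11 cardiac markers rose, a share near the 10.2% of all genes.

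The summed level of the 15 cardiac markers was 51.2 and 59.9 CPM in BV+ NRF1 OE, 32.5 to 41.8 CPM in BV- NRF1 OE, 32.0 and 32.9 CPM in BV+ Ctrl and 21.9 and 27.3 CPM in BV- Ctrl, with at most 3 of the 15 at 0 in a library. That of the 15 endothelial markers was 182 and 213 CPM in BV+ NRF1 OE and overlapped with the 178 to 196 CPM of BV- NRF1 OE. Pecam1 alone made up 100 and 145 CPM of the sum in BV+ NRF1 OE and 155 to 171 CPM in BV- NRF1 OE. The 7 notochord markers summed to 16.7 and 25.6 CPM in BV+ NRF1 OE and to 6.93 to 14.6 CPM in BV- NRF1 OE, and the 6 neuroectoderm markers to 190 and 236 CPM against 105 to 141 CPM. Krt19 alone made up 8.71 and 13.9 CPM of the notochord sum in BV+ NRF1 OE and 1.01 to 4.79 CPM in BV- NRF1 OE. Actc1 alone made up 19.0 and 19.1 CPM of the cardiac sum in BV+ NRF1 OE and 19.3 to 32.0 CPM in BV- NRF1 OE. Of the neuroectoderm sum, Nes made up 59.3 and 105 CPM in BV+ NRF1 OE and 9.83 to 11.3 CPM in BV- NRF1 OE. Tubb3 made up 58.8 and 70.3 CPM of it against 61.9 to 90.8 CPM. Of the 10 genes, Gata4, Gata6, Sox7, Sox17, Foxa1 and Foxa2 have roles in such cells. They did not pass the test between BV+ and BV- cells at either state, and neither did Hnf4a and Dab2. The part of these markers in the results of the 10 genes was not tested.

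The germ cell markers, which would define BV+ cells as PGCLCs, were not higher in the libraries labelled BV+. At NRF1 OE, 3 of 9 were lower in BV+ than in BV- cells, where 3.85% of all genes tested were, and 0 were higher. The 3 were Nanos3 (-1.04, SE 0.187, adjusted p = 0.0035), Dppa3 (-0.65, SE 0.125, adjusted p = 0.00536) and Tfap2c (-0.43, SE 0.129, adjusted p = 0.0461). The summed level of the 9 was 397 and 440 CPM in BV+ NRF1 OE and 513 to 605 CPM in BV- NRF1 OE, with none of the 9 at 0 in any library. Of the 8 pluripotency markers, 3 were lower in BV+ cells at NRF1 OE, against the same 3.85% of all genes. Among them were Utf1 (-0.70, SE 0.121, adjusted p = 0.00262) and Pou5f1 (-0.52, SE 0.104, adjusted p = 0.00712). With NRF1 OE in BV+ cells, Zfp42 (-0.67, adjusted p = 0.0404) and Klf4 (-0.67, adjusted p = 0.0472) fell, and Dppa3 rose (0.64, SE 0.137, adjusted p = 0.0252). In BV- cells 4 of the 9 germ cell markers rose, where 10.2% of all genes did, among them Dppa3 (0.84, adjusted p = 0.0317) and Dnd1 (0.82, adjusted p = 0.0317). Dazl and Ddx4 had lower means with NRF1 OE in BV- cells, at 54.1 and 12.4 CPM against 88.4 and 22.3 CPM. With NRF1 OE in BV+ cells 5 of the 9 had lower estimates, among them Dazl (46.0 against 84.5 CPM). In both fractions 0 of the 9 passed the test as lower. Directions between BV+ and BV- for the endoderm genes are therefore given for the libraries as labelled.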

How the data were processed

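RNA-seq was made from poly(A) RNA of 9 samples. Per the labels and the submitters' processing notes, the authors aligned reads with HISAT2 2.0.1 to GRCm39 and counted them with HTSeq 0.6.1; the deposited tables give raw counts per gene, which were tested here, and FPKM computed by the authors, used here only to compare levels between genes. Strand settings are not given in the sources used here.

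Counts were fitted with edgeR 4.0.16 in R 4.3.3 (TMM, filterByExpr, 1 term per group, all 9 libraries, quasi-likelihood test, Benjamini-Hochberg adjustment over 16903 genes). The fit pooled the spread over all groups, although replicates differed more with NRF1 OE. Between replicates, the chi-square of counts per degree of freedom was 2.99 in BV+ Ctrl and 6.59 in BV- Ctrl. It was 20.2 in BV+ NRF1 OE and 12.3 to 34.7 in BV- NRF1 OE. Called means an adjusted p under 0.05; the study's own threshold took p under 0.05 before adjustment and log2 fold changes beyond 0.58 in size. Fold changes are log2 as given by edgeR's test, log2 CPM for correlations and GC trends used a prior count of 2, and ± is the SD. Offsets for GC content and length were fitted with mgcv 1.9.3 from GENCODE transcripts on GRCm38, for 16662 of the 16903 genes (98.6%). Promoters came from a RefSeq table on GRCm38.p6. DESeq2 1.42.0, its size factors, no filter, only the groups compared, a replicate block and leaving out each library were the other alternatives. Scripts were tested on simulated data.

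The 10 genes and all lists were chosen with earlier results of these data known. Beside the 10 and Nrf1, the text names up to 4 called genes per list with the largest absolute log2 fold change and a mean of at least 1 CPM, and the 2 genes most correlated with each member. Prdm1, Alb and Lrp2 were named after their values were seen, as were genes called in only 1 alternative. Also named outside this rule, with their values seen, were Noto, Shh, T, Foxj1, Pecam1, Actc1, Tubb3, Lama1, Stra6, Dazl, Ddx4, Bmp4 and Lamb1.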

Additional observations from a re-analysis of the deposited data

Results flagged for a closer look

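No gene of the 10 moved in opposite directions in BV+ and BV- cells without overlap of the libraries, and groups of 2 or 3 libraries were too small for a check of single libraries. Among the up to 4 called genes named per list, 3 moved in opposite directions with NRF1 OE, with no overlap of the libraries in either fraction. The other listed genes were not screened, and the share over all genes was not counted. Bmp4 and Lamb1, for example, were also above Ctrl in BV+ and below it in BV- cells without overlap. Kdr, the VEGF receptor of endothelial precursors, had a log2 fold change of 1.49 in BV+ and of -0.49 in BV- cells, and the difference of 1.98 (SE 0.369) had an adjusted p of 0.455 in edgeR's interaction test. Nog, a BMP antagonist of the notochord, had 1.91 and -0.61, with a difference of 2.52 (SE 0.566, adjusted p = 0.493). Nid1, a basement membrane protein, had 0.29 and -0.43, with a difference of 0.71 (SE 0.191, adjusted p = 0.571). None of the 3 differences passed after adjustment over all genes.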

How the results depend on the processing

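Of the 10 genes, the number called for NRF1 OE in BV+ cells (2) became 1 with DESeq2, 3 with no filter, 3 with offsets for GC content and length (Gata6 added), 0 with a replicate block and 0 to 3 without single libraries. In BV- cells (3) it became 4 with no filter (Sox7 added), 2 with offsets (Gata4 and Gata6), 0 in a fit of only the groups compared, 0 with the block, 0 with the block and offsets, and 0 to 5 without single libraries. Between BV+ and BV- cells at Ctrl (0) it became 1 with DESeq2, 1 with no filter, 3 with only the groups compared, 1 with offsets and 0 to 1 without single libraries; at NRF1 OE (2) it became 3 with no filter and 3 with offsets (Hnf4a added in both), 1 with only the groups compared, 1 with the block and 1 to 3 without single libraries. The number of other endoderm genes called in BV+ cells (3) became 6 with DESeq2, 9 with no filter, 9 with only the groups compared, 0 with the block, 6 with offsets and 0 to 11 without single libraries. In BV- cells (4) it became 0 with only the groups compared, 0 with the block, 2 with offsets, 0 with both and 0 to 7 without single libraries. At Ctrl (2) it became 5 with no filter, 9 with only the groups compared, 1 with the block, 1 with offsets and block and 0 to 6 without single libraries; at NRF1 OE (12) it became 19 with no filter, 7 with the block and 6 to 16 without single libraries. Over all genes, the shares called for NRF1 OE in BV+ and BV- cells were 12.6% and 24.6% with DESeq2. They were 10.4% and 13.3% with no filter, 12.6% and 6.22% with offsets and 0.0177% and 0% with the block. With only the groups compared they were 26.8% and 0%. Between BV+ and BV- cells at Ctrl and NRF1 OE the shares were 1.6% and 8.48% with no filter. They were 1.71% and 28.2% with offsets, 0.716% and 6.29% with the block and 5.52% and 7.8% with only the groups compared. The share of all genes called for NRF1 OE also moved when 1 BV- NRF1 OE library was left out. It lay between 3.94% and 29.4% in BV+ cells and between 0.207% and 34.6% in BV- cells. The cause was not tested.

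Same-numbered libraries correlated in their deviations from the group means at -0.03 (NRF1 OE and Ctrl in BV+), 0.31 and 0.35 (in BV-), -0.15 (BV+ and BV- at Ctrl) and -0.26 and -0.43 (at NRF1 OE), so the numbers were not taken as pairs. With the replicate block, the calls over all genes went from 1355 to 3 in BV+ and from 2910 to 0 in BV- cells for NRF1 OE, and the calls of Cubn (adjusted p = 0.0534) and Foxa1 (0.0965) in BV+ cells and of Afp at NRF1 OE (0.061) were lost. DESeq2 called 2126 genes and the fit with offsets 2096 in BV+ cells, against 4166 and 1037 in BV- cells. Offsets moved the median log2 fold change of all genes between BV+ and BV- at NRF1 OE from -0.0049 to -0.106. A crossed block at Ctrl, chosen after seeing the data, called 1 of the 10 genes and 1 other endoderm gene. Of 789 values of the 10 genes under alternatives, 53 changed sign, of which 0 were called. With offsets, and with offsets and the replicate block, the log2 fold change of Dab2 became 0.052 and 0.054 in BV+ cells and -0.11 and -0.19 between BV+ and BV- at NRF1 OE, and in BV- cells that of Sox17 became -0.065 and -0.018 and that of Foxa2 -0.36 and -0.25. Between BV+ and BV- at Ctrl, Sox7 became 0.011 with no filter, 0.0090 with only the groups compared and 0.0088 with the block. With the block, Gata6 became 0.054 between BV+ and BV- at NRF1 OE, and the interaction of Hnf4a 0.13, or 0.12 with offsets and block.

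Without single libraries, log2 fold changes for NRF1 OE in BV+ cells ranged from -0.26 to 0.033 for Gata4, -1.02 to 0.12 for Sox7, -0.44 to 0.27 for Foxa2 and -0.59 to 0.071 for Hnf4a. In BV- cells they ranged from -0.22 to 0.53 for Sox17, -0.41 to 0.33 for Foxa2, -0.37 to 0.049 for Hnf4a and -0.70 to 0.10 for Afp. At Ctrl they ranged from -0.091 to 0.59 for Sox17, -0.24 to 0.21 for Sox7 and -0.47 to 0.21 for Foxa2, and at NRF1 OE from -0.24 to 0.22 for Gata4, -0.46 to 0.21 for Gata6, -0.090 to 1.05 for Sox7 and -0.55 to 0.22 for Foxa2. For the interaction they ranged from -0.12 to 0.60 for Gata6, -0.082 to 1.06 for Sox7, -0.47 to 0.26 for Foxa2 and -0.41 to 0.26 for Hnf4a. DESeq2 gave no adjusted p for 2 of the 10 genes in BV+ cells, 4 in BV- cells and 4 in the interaction. Depth limits Foxa1, Foxa2 and Sox17 most, with at most 29 reads per library.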
